A study of Mus musculus with 6 samples.

Results

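The genes described here are the Wnt ligands *Wnt2*, *Wnt2b*, *Wnt3*, *Wnt4*, *Wnt5a*, *Wnt5b*, *Wnt6*, *Wnt7b*, *Wnt10a* and *Wnt10b*. They were chosen by gene symbol from the deposited RNA-Seq table, and 9 of the 10 symbols had a row among its 15280 genes. *Wnt2* had no row and was not analysed here. The table holds 6 libraries from 3 parous female BK5.ATF3 mice, which carry an *ATF3* transgene behind the bovine keratin 5 promoter, active in basal epithelial cells. From each mouse, 1 mammary tumor (T11035, T11640 and T9232) and the adjacent normal mammary gland (M11035, M11640 and M9232) were sequenced, so n = 3 for each tissue. The tumors arose at 6 to 12 months of age after 1 litter and were taken at 1.5 cm. Tumors and glands both carried the transgene, and no library of a wild-type mouse entered the comparison. The question was which Wnt ligand transcripts differed between the tumors and the glands beside them, and by how much.

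Wnt ligands are secreted proteins that carry a lipid, without which they neither leave the cell nor bind their receptors. A ligand bound to a Frizzled receptor and the co-receptor LRP5 or LRP6 stabilizes β-catenin, which then switches on target genes with TCF/LEF factors (the canonical pathway). Other ligands, with *Wnt5a* the best known, act mainly through Frizzled with ROR, RYK or PTK7 on cell polarity and calcium (the non-canonical pathways). In the mammary gland, Wnt proteins are known for bud formation, for the upkeep of basal stem cells and, in the case of *Wnt4*, for side branching in response to progesterone.

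A conserved stretch of the family surrounds the serine to which the lipid is attached. It is shown here because it is the feature that all the measured ligands share and that makes them substrates of 1 acyltransferase, Porcupine. The lines give 39 bases of coding exon from the mouse genome (mm9, GENCODE vM1 transcripts), 5′ to 3′, with the codon of that serine in capitals.
*Wnt5a*, chr14:29335695-29335733, plus strand: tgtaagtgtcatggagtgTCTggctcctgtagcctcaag
*Wnt5b*, chr6:119383809-119383847, minus strand: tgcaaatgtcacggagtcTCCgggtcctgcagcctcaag
*Wnt3*, chr11:103673622-103673660, plus strand: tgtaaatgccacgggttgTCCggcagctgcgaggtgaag
*Wnt6*, chr1:74830740-74830778, plus strand: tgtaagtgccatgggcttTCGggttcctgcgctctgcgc
*Wnt7b*, chr15:85368233-85368271, minus strand: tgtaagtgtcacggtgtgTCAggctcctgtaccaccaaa
*Wnt10a*, chr1:74849724-74849762, plus strand: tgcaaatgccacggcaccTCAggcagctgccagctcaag
*Wnt10b*, chr15:98603300-98603338, minus strand: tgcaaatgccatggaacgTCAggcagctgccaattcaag
*Wnt2b*, chr3:104754129-104754167, minus strand: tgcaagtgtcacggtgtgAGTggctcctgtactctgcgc
*Wnt4*, chr4:136852254-136852292, plus strand: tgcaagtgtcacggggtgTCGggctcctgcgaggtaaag
Of the 39 bases, 15 were identical in all 9 genes. The stretch was located in each translation by the residues Cys-His-Gly-any-Ser-Gly-Ser-Cys, so the search itself fixed part of this identity. Over the whole coding sequence, the 36 pairs of measured ligands were between 59.1% and 77.6% identical, with *Wnt5a* and *Wnt5b* the closest pair and *Wnt10a* and *Wnt10b* at 70.5%. No word of 76 bases, the read length, from the longest transcript of any measured ligand except *Wnt4* occurred in a protein-coding transcript of another gene. For *Wnt4*, 50 of 4107 such words were shared with protein-coding transcripts of 16 other genes. Transcripts outside the protein-coding set of GENCODE vM1 were not searched.

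The libraries held between 4750989 and 7806908 fragments on genes. Values are given in CPM, fragments scaled to edgeR's effective library size, and 3 fragments, taken as the counting floor, corresponded to between 0.393 and 0.610 CPM. A differentially expressed gene (DEG) had a log2 fold change of 1 or more in either direction with an adjusted p up to 0.05 (limma on log2(CPM + 0.5), Benjamini-Hochberg over 15280 genes). Of all genes tested, 28.2% were DEGs, 14.5% upregulated and 13.7% downregulated in the tumors. Among the 9 measured ligands, 7 were DEGs: *Wnt3*, *Wnt5a*, *Wnt6*, *Wnt7b*, *Wnt10a* and *Wnt10b* were upregulated and *Wnt5b* was downregulated. *Wnt2b* and *Wnt4* did not pass the test. In whole tissue, fewer cells of a type and less RNA per cell cannot be told apart. edgeR on the recovered fragments called the same 7 genes, beside 29.2% of all genes. For 8 of the 9 ligands, all 3 tumors lay above or all 3 lay below the 3 glands, as was true of 54.0% of all genes. The median log2 fold change was 2.52, or 2.83 with *Wnt6* and *Wnt10a* set against the floor, and that of all genes was -0.00276.

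These counts and the median need the filter of the table beside them. The authors kept genes with at least 10 fragments in all, and 5 ligands (*Wnt3*, *Wnt6*, *Wnt7b*, *Wnt10a* and *Wnt10b*) had fewer than 10 fragments over the 3 glands together. These 5 reached the minimum only with their tumor fragments, so the filter favors genes of this kind that are higher in the tumors. Of all 631 genes with fewer than 10 fragments over the glands, 76.1% were upregulated DEGs. The counts of ligands and their median log2 fold change are therefore descriptions of the genes that passed the filter and not evidence about the family. The other 4 (*Wnt2b*, *Wnt4*, *Wnt5a* and *Wnt5b*) passed the minimum in the glands alone. Their log2 fold changes were 0.09, 0.96, 3.13 and -1.55.

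**Figure D1:**
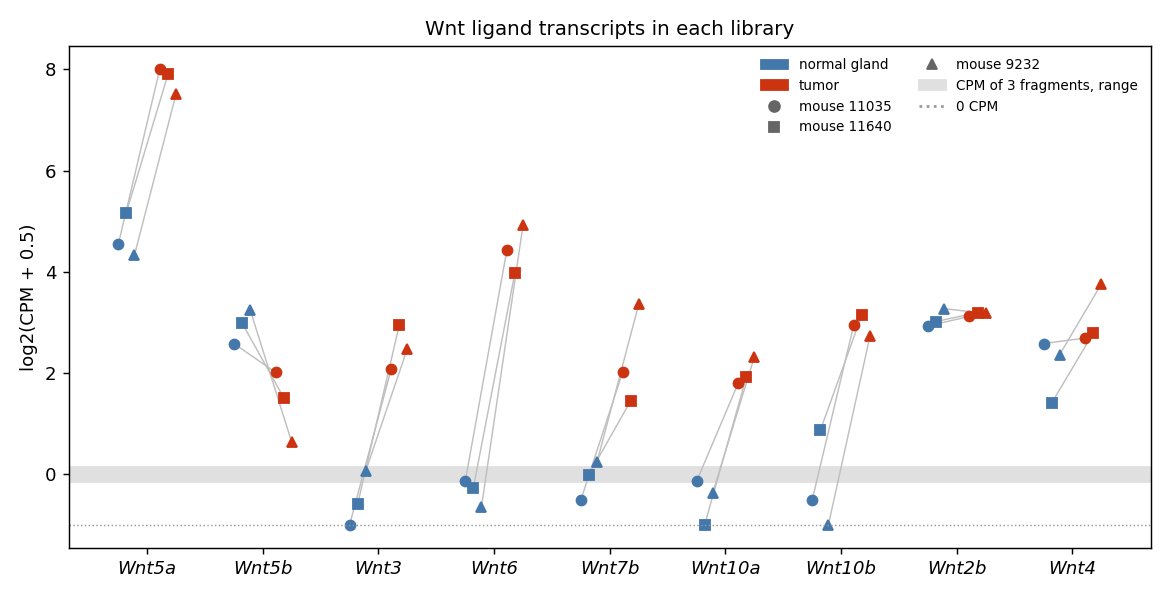
Level of the 9 Wnt ligands in each library, as log2(CPM + 0.5), with blue for normal glands, red for tumors, a marker shape for each mouse and a line joining its 2 tissues. The grey band is the CPM of 3 fragments and the dotted line is 0 CPM: for *Wnt3*, *Wnt6*, *Wnt7b*, *Wnt10a* and *Wnt10b* the glands lie in or below the band, except M9232 for *Wnt7b* (0.684 CPM) and M11640 for *Wnt10b* (1.32 CPM), which lie above it, and the tissues overlap for *Wnt2b*.

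*Wnt5a* and *Wnt5b* are the closest relatives among these ligands and moved in opposite directions. *Wnt5a* (chr14:29317936-29340633, plus strand, mm9), a non-canonical ligand made mostly by stromal cells in many tissues, was at 22.8, 35.5 and 19.6 CPM in glands M11035, M11640 and M9232. In the tumors of the same mice it was at 257.5, 238.3 and 182.2 CPM. Each tumor was far above each gland, and the glands differed among themselves by less than the gap. The mean rose from 25.9 ± 8.44 to 226.0 ± 39.1 CPM (SD, n = 3), 8.71 times, with a log2 fold change of 3.13, a standard error of 0.24 and an adjusted p of 2.6e-05 (limma). It was the ligand counted most deeply, with 470 fragments in the glands and 4418 in the tumors.

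*Wnt5b* (chr6:119382549-119494336, minus strand), known for its part in cartilage and fat cell differentiation, was at 5.49, 7.43 and 9.03 CPM in glands M11035, M11640 and M9232 and at 3.54, 2.36 and 1.05 CPM in the tumors. The tissues did not overlap, but the mice differed in the size of the fall. The change from gland to tumor was taken on the log2(CPM + 0.5) scale. It was -0.57 for T11035 against M11035, -1.47 for T11640 against M11640 and -2.62 for T9232 against M9232. The added 0.5 makes these falls smaller than those of the plain CPM ratios. The mean fell from 7.32 ± 1.77 to 2.31 ± 1.24 CPM (SD, n = 3). limma gave a log2 fold change of -1.55 ± 0.38 (standard error) with an adjusted p of 0.0117. Set against each other per kb of transcript, the level of *Wnt5a* was 1.38, 1.59 and 0.723 times that of *Wnt5b* in the glands and 24.3, 33.7 and 58.0 times in the tumors. The gland ratio depends on the length used: per kb of coding sequence the gland means were 22.7 and 6.54, with *Wnt5a* the higher, and the tumor means 197.7 and 2.07. In every tumor *Wnt5a* transcript outnumbered that of *Wnt5b*.

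*Wnt6*, *Wnt10a*, *Wnt10b*, *Wnt3* and *Wnt7b* are ligands best known for canonical signaling in epithelia such as skin, hair follicle and the embryonic mammary bud. In the glands these 5 genes rested on 9 fragments or fewer each, so their gland levels are given with the fragments behind them. Ratios of such genes are given over the pooled libraries of each tissue with an exact 95% interval that covers counting error only.

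*Wnt6* (chr1:74818466-74831893, plus strand), a ligand of epithelial buds, was represented by 2, 2 and 1 fragments in glands M11035, M11640 and M9232 (0.407, 0.330 and 0.137 CPM), none of them above the floor. By contrast, the tumors held 113, 117 and 199 fragments, or 21.0, 15.3 and 29.8 CPM. No tumor came near the glands, and the tumor mean of 22.1 ± 7.30 CPM (SD, n = 3) was 43.7 times the gland floor. The pooled ratio was 79.7, with an interval from 33.9 to 247, and the log2 fold change of 4.80 was the highest among the 9 ligands (standard error 0.32, adjusted p = 1.3e-05, limma).

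*Wnt10a* (chr1:74838090-74850753, plus strand), a ligand of teeth, hair and sweat glands, lies 6.196 kb downstream of *Wnt6* on the same strand. It had 2, 0 and 2 fragments in glands M11035, M11640 and M9232, again none above the floor. Its tumor values were 2.98, 3.28 and 4.50 CPM from 16, 25 and 30 fragments. All tumors were above all glands, and the tumor mean was 7.09 times the gland floor (limma log2 fold change 2.52 ± 0.37, standard error; adjusted p = 8.2e-04). The pooled ratio was 16.5, with an interval from 6.17 to 62.2. Of these neighbours, *Wnt6* was the higher in each tumor, at 8.43, 5.59 and 7.92 times the level of *Wnt10a* per kb.

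*Wnt10b* (chr15:98602184-98608581, minus strand), which holds back fat cell formation and marks the early mammary line of the embryo, was at 0.203, 1.32 and 0 CPM in glands M11035, M11640 and M9232. M11640 held 8 of its 9 gland fragments. The tumors were at 7.26, 8.39 and 6.14 CPM, a narrow range that lay above every gland. The mean was 7.26 ± 1.12 CPM in the tumors and 0.508 ± 0.712 CPM in the glands (SD, n = 3), and the log2 fold change was 3.16 ± 0.47 (standard error; limma, adjusted p = 9.62e-04). The pooled ratio was 14.9 (interval from 7.62 to 33.2).

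*Wnt3* (chr11:103635464-103679271, plus strand), a ligand that supports stem cells in the gut and the early embryo, had 0, 1 and 4 fragments in glands M11035, M11640 and M9232. The tumors held 20, 55 and 34, which gave 3.72, 7.21 and 5.09 CPM. The tissues were apart, and the tumors differed among themselves by a factor of 1.94 between T11640 and T11035. The log2 fold change was 3.01, with a standard error of 0.40 and an adjusted p of 4.84e-04 (limma), and the pooled ratio was 20.3 with an interval from 8.42 to 63.6.

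*Wnt7b* (chr15:85365869-85412251, minus strand), known for lung and hair follicle growth, was at 0.203, 0.496 and 0.684 CPM in glands M11035, M11640 and M9232. It was at 3.54, 2.23 and 9.74 CPM in the tumors. T9232 stood above the other 2 tumors, which themselves were above the glands. The log2 fold change of 2.36 had the largest standard error of the 9, 0.50 (adjusted p = 0.00584, limma), and was 1.82 without T9232 (adjusted p = 0.0152, limma). The pooled ratio was 10.4 (interval from 5.28 to 23.5). Exons of *Wnt7b* overlap those of AU022754 and exons of *Wnt5a* those of Gm2670, neither of which has a row in the table. No source used here states that the library kit marked strand, so reads of such partners could not be told apart.

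The size of these log2 fold changes depends on the scale. Because 0.5 was added to each CPM, the change of ligands near the floor is understated, and edgeR on the fragments gave 6.22 for *Wnt6*, 4.23 for *Wnt3*, 3.91 for *Wnt10a*, 3.82 for *Wnt10b* and 3.36 for *Wnt7b*. *Wnt5a*, far from the floor, had 3.12 by edgeR.

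*Wnt2b* and *Wnt4* were above the floor in every library and were not DEGs. *Wnt2b* had 148 fragments in the glands and 167 in the tumors, and *Wnt4* had 74 and 168. *Wnt2b* (chr3:104747723-104764627, minus strand), a canonical ligand related to *Wnt2*, was at 7.12, 7.60 and 9.16 CPM in glands M11035, M11640 and M9232 and at 8.19, 8.65 and 8.54 CPM in the tumors. The tissues overlapped, and the tumors lay within the range of the glands. Its log2 fold change was 0.09, with a 95% interval from -0.38 to 0.56 (adjusted p = 0.758, limma), so a change of 2-fold in either direction lay outside the interval. *Wnt4* (chr4:136833404-136855641, plus strand), the progesterone target of side branching, was at 5.49, 2.15 and 4.65 CPM in the glands and 5.95, 6.42 and 13.0 CPM in the tumors. All tumors were above all glands, but T11035 was above M11035 by little. The log2 fold change of 0.96 had an interval from 0.05 to 1.88 and an adjusted p of 0.0860 (limma), and over the alternatives the adjusted p ranged from 0.0559 to 0.271. It was 0.61 without gland M11640. A change of 2-fold was within the interval, so *Wnt4* was not shown to be level.

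**Figure D2:**
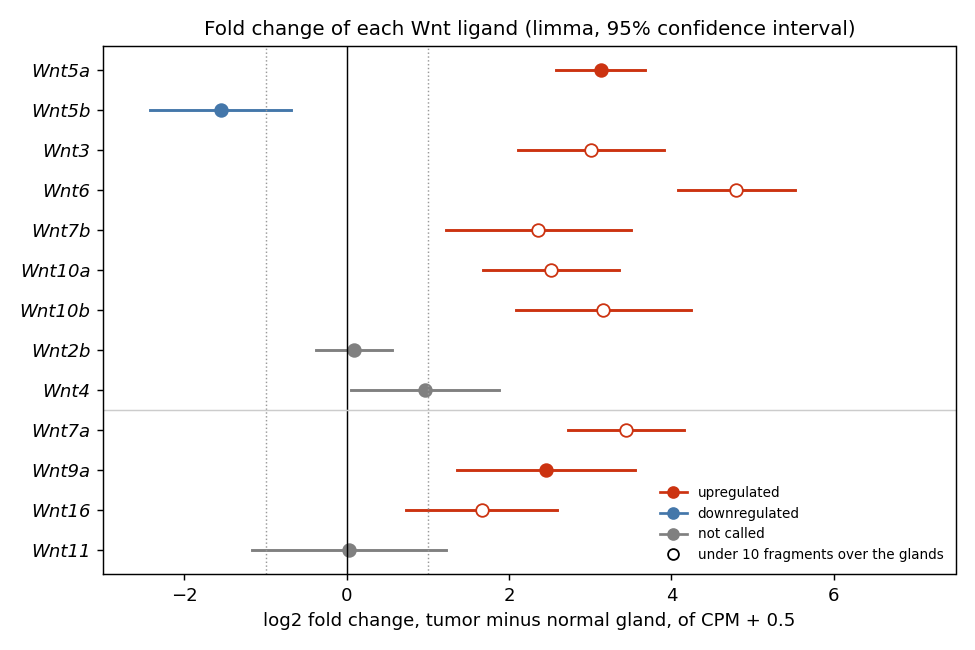
Log2 fold change of each Wnt ligand, tumor minus normal gland, on the log2(CPM + 0.5) scale, with limma's 95% confidence interval as a bar and dotted lines at a change of 1 in either direction. Open circles are genes with fewer than 10 fragments over the 3 glands, and the 4 genes under the grey line are Wnt ligands outside the 10 named above; *Wnt5b* alone lies to the left of 0 with its whole interval.

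Levels of different genes were compared per kb of the longest annotated transcript. In the glands the order was *Wnt5a* (3.70 ± 1.20 CPM per kb), *Wnt5b* (3.13 ± 0.758), *Wnt2b* (2.23 ± 0.300) and *Wnt4* (0.977 ± 0.415), followed by *Wnt10b*, *Wnt6*, *Wnt7b*, *Wnt10a* and *Wnt3*, all below 0.3 CPM per kb on average. Only *Wnt2b* and *Wnt4* were neighbours in this order whose ranges over the 3 glands did not overlap. In the tumors the order was *Wnt5a* (32.2 ± 5.58 CPM per kb), *Wnt6* (10.7 ± 3.53), *Wnt10b* (3.26 ± 0.504), *Wnt2b* (2.37 ± 0.0677), *Wnt4* (2.02 ± 0.944), *Wnt3* (1.74 ± 0.571), *Wnt7b* (1.48 ± 1.15), *Wnt10a* (1.45 ± 0.326) and *Wnt5b* (0.990 ± 0.532). The first 4 in the tumors were separated from each other by their ranges, and from *Wnt2b* downward each gene overlapped the next. *Wnt6* was in place 2 in the tumors, and *Wnt5b* went from place 2 in the glands (place 3 per kb of coding sequence) to the last place in the tumors.

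The 9 ligands together came to 42.1, 55.0 and 44.0 CPM in glands M11035, M11640 and M9232 and to 313.7, 292.1 and 260.1 CPM in the tumors. The tumors were all above the glands, with means of 288.7 ± 27.0 and 47.0 ± 6.96 CPM (SD, n = 3) and a ratio of 6.14. The exact permutation test gave p = 0.1 (two-sided), the smallest that 3 against 3 allows. *Wnt5a* carried much of this sum. Without it the other 8 ligands came to 62.7 ± 13.3 CPM in the tumors and 21.1 ± 2.94 CPM in the glands (ratio 2.97). Of these 8, *Wnt3*, *Wnt6*, *Wnt7b*, *Wnt10a* and *Wnt10b* reached the minimum of the table only with their tumor fragments. Both ratios and the permutation test therefore describe the genes that passed the filter. *Wnt2b*, *Wnt4* and *Wnt5b* reached it with their gland fragments alone. Their gland means were 7.96, 4.10 and 7.32 CPM, and their tumor means 8.46, 8.47 and 2.31 CPM. Per kb, *Wnt5a* made up 34.3% of ligand transcript in the glands and 57.3% in the tumors (means of 3 libraries), *Wnt5b* 29.1% and 1.74%, *Wnt2b* 20.9% and 4.22%, and *Wnt6* 1.35% and 19.0%. Per kb, the ligand transcript of the glands was thus mostly *Wnt5a*, *Wnt5b* and *Wnt2b*, and that of the tumors mostly *Wnt5a* and *Wnt6*. These shares depend on the division by length. In plain CPM, *Wnt5a* made up 54.4% in the glands and 77.9% in the tumors. *Wnt5b* made up 15.7% and 0.779%, and *Wnt6* 0.626% and 7.80%.

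**Figure D3:**
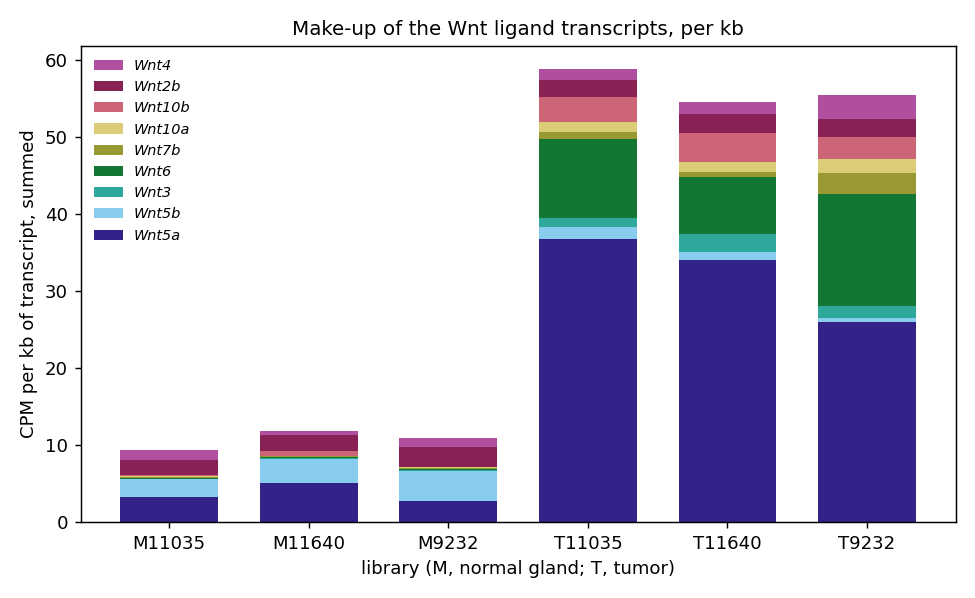
Summed level of the 9 Wnt ligands in each library, in CPM per kb of transcript, with 1 colour for each gene. Bars of the 3 glands reach between 9.41 and 11.8 and bars of the 3 tumors between 54.4 and 58.8, and in the tumors the largest segments are *Wnt5a* and *Wnt6*.

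The tumor with the highest level differed from ligand to ligand. T9232 was the highest tumor for 4 ligands (*Wnt4*, *Wnt6*, *Wnt7b* and *Wnt10a*) and the lowest for 3 (*Wnt5a*, *Wnt5b* and *Wnt10b*). T11035 was the highest for 2 and the lowest for 4, and T11640 the highest for 3 and the lowest for 2. Some of these ranks rest on small differences: for *Wnt2b* the highest tumor was at 1.06 times the lowest. *Wnt5a* made up 46.9% of ligand transcript per kb in T9232, against 62.5% in T11035 and 62.4% in T11640. With 1 tumor from each mouse, differences between tumors have no replicate.

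Of 9 other Wnt genes looked for, *Wnt7a*, *Wnt9a*, *Wnt11* and *Wnt16* had a row, and 3 of these 4 were upregulated (median log2 fold change 2.06). Among all genes, 14.5% were upregulated. *Wnt7a*, a relative of *Wnt7b*, had no fragment in any gland and was at 4.09, 5.37 and 5.39 CPM in the tumors, on average at least 9.80-fold higher than a gland mean with 3 fragments set in each of the 3 glands. *Wnt9a*, a ligand of joints, was at 1.22, 2.64 and 0.274 CPM in the glands and 7.07, 7.73 and 10.6 CPM in the tumors, and its log2 fold change was 2.46 (limma, adjusted p = 0.00392). *Wnt16*, a ligand of bone and skin, had 0, 0 and 3 fragments in the glands and 10, 10 and 8 in the tumors (log2 fold change 1.67, adjusted p = 0.0112, limma). *Wnt11*, a non-canonical ligand, overlapped between the tissues, at 2.85, 0.330 and 1.09 CPM in the glands and 0.930, 0.917 and 1.80 CPM in the tumors, and its log2 fold change of 0.02 took the opposite sign by edgeR (-0.17). *Wnt7a* and *Wnt16* also reached the minimum of the table only with their tumor fragments.

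Of 10 genes that lipidate, export or delipidate the ligands, 3 were upregulated and none downregulated (median log2 fold change 0.37), a share near the 28.2% of DEGs among all genes. *Porcn*, which encodes the acyltransferase that adds the lipid at the serine shown above, rose from 3.31 ± 1.12 to 16.8 ± 3.85 CPM (SD, n = 3), or by 2.20 on the log2 scale (limma, adjusted p = 5.5e-04). *Wls*, the carrier that takes the lipidated ligand to the cell surface, rose from 53.7 ± 14.4 to 201 ± 15.3 CPM, or by 1.93 on the log2 scale (adjusted p = 1.7e-04, limma). *Notum*, a secreted enzyme that removes the lipid, had 0, 0 and 2 fragments in glands M11035, M11640 and M9232, none above the floor, and 17, 41 and 13 in the tumors (log2 fold change 2.70, adjusted p = 0.00129, limma). Like *Wnt6*, it reached the minimum of the table only with its tumor fragments, and its pooled ratio was 33.0 (interval from 8.80 to 278). The cargo receptors and the retromer complex that recycles *Wls* were not DEGs, with log2 fold changes of 0.28 for *Tmed2*, -0.63 for *Tmed5*, 0.06 for *Tmed10*, 0.47 for *Vps35*, -0.07 for *Vps26a*, 0.54 for *Vps29* and 0.07 for *Snx3*. Of 7 glypicans and syndecans, which hold ligands at the cell surface, 2 were upregulated and none downregulated (median 0.94), again near 28.2%, from *Sdc1* at 3.66 to *Gpc6* at -0.63, the latter not a DEG.

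Among 17 receptors and co-receptors, 8 were upregulated and 1 downregulated (median 0.51), beside 28.2% of DEGs among all genes. *Ptk7*, a polarity receptor, had the highest log2 fold change (3.06, adjusted p = 3.82e-05, limma). *Fzd4*, a receptor with many ligands, had the lowest and fell from 116 ± 41.7 to 18.3 ± 4.79 CPM, and its log2 fold change was -2.61 (limma, adjusted p = 1.81e-04). Receptors that bind *Wnt5a* were picked after their values were seen. *Ror2* rose by 2.13 on the log2 scale (adjusted p = 0.00154, limma), and *Ror1* was not a DEG, at 0.17 (adjusted p = 0.677, limma). *Ryk* rose by 1.02 (adjusted p = 0.00146, limma), just past the threshold of 1, and was called in 10 of 13 alternatives. Of 13 genes listed as antagonists, 9 were upregulated and none downregulated (median 2.26), beside 14.5% upregulated among all genes. *Dkk1*, which blocks LRP5 and LRP6, rose from 0.554 ± 0.343 to 120 ± 37.6 CPM, the highest change of the list (log2 fold change 6.84, adjusted p = 3.42e-06, limma), and *Dkkl1* had the lowest value, 0.60, and was not a DEG. The gland level of *Dkk1* rested on 4, 1 and 5 fragments in M11035, M11640 and M9232, and its pooled ratio was 227 (interval from 123 to 473).

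Of 8 genes of the R-spondin axis, which sets how many Frizzled receptors stay at the surface, 5 were upregulated and 1 downregulated (median 2.06). The share of DEGs among all genes was 28.2%. *Lgr5*, an R-spondin receptor and stem cell marker, had the highest log2 fold change (2.98) and *Rspo1*, a ligand of that receptor, the lowest (-2.14, adjusted p = 0.0147, limma). Tumors T11035, T11640 and T9232 held 1, 0 and 2 fragments of *Rspo1*, none above the floor. Of 14 feedback targets of β-catenin, 11 were upregulated and 1 downregulated (median 2.49), beside the same 28.2%. *Dkk1* was again the highest and *Tcf7* the lowest at -1.34 (adjusted p = 0.0221, limma), the latter called in 10 of 13 alternatives. *Axin2*, the most used readout of canonical signaling and picked after its values were seen, rose from 13.6 ± 5.17 to 99.4 ± 11.4 CPM, or by 2.89 on the log2 scale (adjusted p = 5.68e-05, limma). These lists share members, among them *Notum*, *Lgr5*, *Rnf43*, *Znrf3*, *Dkk1* and *Apcdd1*. Besides *Notum*, *Fzd10*, *Rspo4* and *Sp5* of these lists had fewer than 10 fragments over the glands. Of 25 genes of the non-canonical cascade, 4 were upregulated and 3 downregulated (median 0.21), from the polarity gene *Celsr1* at 2.67 to the calcium-dependent kinase *Camk2a* at -3.25. Without T11640, 4 of these 25 genes in place of 7 were DEGs. The 7 of 25 is close to the 28.2% of DEGs among all genes.

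**Figure D4:**
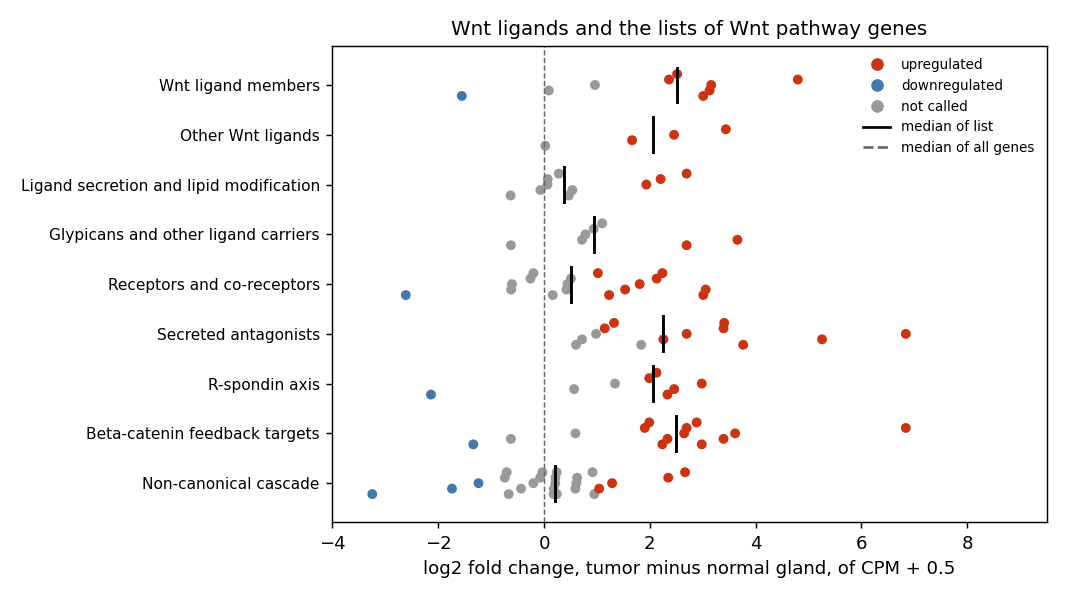
Log2 fold change, tumor minus normal gland on the log2(CPM + 0.5) scale, of each gene in the list of Wnt ligands and 8 lists of Wnt pathway genes, with 1 point for each gene, coloured by its call. Black bars are list medians and the dashed line is the median of all genes: the antagonists and feedback targets have medians of 2.26 and 2.49, and the non-canonical cascade one of 0.21.

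Promoter sequence was looked at for the motifs of ATF3, the transcription factor of the transgene, and of TCF/LEF. RefSeq windows (GRCm38.p6) from 250 bases before to 50 bases after a start were given for 6 of the 9 measured ligands, as 8 windows, 3 of them for *Wnt5b*. *Wnt5a*, *Wnt7b* and *Wnt10a* had none. Both strands were searched. The AP-1 site (TGANTCA) was found in 1 of the 8 windows and in 7.81% of all 32851 windows of 300 bases, and a TCF/LEF site (CTTTGAA or CTTTGTT) in 1 of 8 and in 10.6%. Other spellings of the TCF/LEF site were not searched. The letters CTTTGAT, for example, occur in the *Wnt5b* window that starts at chr6:119449337 and were not counted. The CRE (TGACGTCA) and the ATF/CREB core (TGACGCAA) were found in 0 of 8, and in 1.79% and 0.490% of all windows. The E-box (CANNTG), which can share its end bases with an AP-1 site or a CRE, was in 7 of 8 and in 72.3%. The 2 windows with an AP-1 or a TCF/LEF match are printed because *Wnt5b* was the downregulated ligand and *Wnt3* an upregulated canonical one, with the match in capitals.
*Wnt3*, chr11:103773925-103774224, plus strand: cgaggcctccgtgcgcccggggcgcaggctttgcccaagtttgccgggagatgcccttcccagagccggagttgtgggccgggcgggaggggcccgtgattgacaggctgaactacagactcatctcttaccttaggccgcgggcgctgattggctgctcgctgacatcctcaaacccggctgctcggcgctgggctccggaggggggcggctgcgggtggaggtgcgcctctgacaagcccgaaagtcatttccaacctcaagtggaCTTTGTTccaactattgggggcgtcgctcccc
*Wnt5b*, chr6:119544298-119544597, minus strand: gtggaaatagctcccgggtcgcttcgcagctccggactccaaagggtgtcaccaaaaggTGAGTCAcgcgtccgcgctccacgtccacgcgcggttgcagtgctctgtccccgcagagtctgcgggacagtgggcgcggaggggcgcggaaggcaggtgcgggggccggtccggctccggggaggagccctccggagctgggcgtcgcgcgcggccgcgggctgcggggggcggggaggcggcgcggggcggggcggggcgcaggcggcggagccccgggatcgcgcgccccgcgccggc
The match in *Wnt5b* starts 191 bases before the most distal of its 3 starts, and that in *Wnt3* starts 18 bases after its start. A match describes letters in a window, and the data hold no measurement of factor binding.

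The genes most like a ligand in pattern were searched for *Wnt5a*, the ligand with the highest mean, and *Wnt5b*, the one with the lowest log2 fold change. Over the 6 libraries and 14711 genes averaging 1 CPM or more, *Tomm20*, *Gsta2* and *Kank1* were closest to *Wnt5a* (Pearson r = 0.998, 0.998 and 0.997 on log2(CPM + 0.5)), and 979 genes had r of at least 0.95. *Rfx3*, *Syn2* and *Ttpa* were closest to *Wnt5b* (r = 0.997, 0.996 and 0.994), with 187 genes at r of at least 0.95. The 6 points share mouse and tissue in pairs and fall into 2 tissues, so each r includes the difference between the tissues.

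Cell make-up moved with the comparison. The counts of marker genes below stand beside 14.5% upregulated and 13.7% downregulated among all genes. Summed over its 7 markers, the adipocyte level ranged from 3089 to 6246 CPM in the glands and from 158 to 215 CPM in the tumors, with 7 of 7 genes downregulated. Epithelial markers went from 222-490 to 2001-2580 CPM (6 of 7 upregulated), squamous and epidermal markers from 7.32-8.34 to 1727-2930 CPM (7 of 7 upregulated) and fibroblast markers from 940-3645 to 8499-9131 CPM (4 of 7 upregulated). B cell and T cell markers fell from 142-358 to 2.23-4.09 CPM and from 150.0-380.0 to 22.5-37.5 CPM (5 of 5 genes downregulated in each). Hormone-sensing luminal markers went from 331-524 to 69.7-152 CPM (4 of 7 downregulated, 2 upregulated), neutrophil markers from 52.7-134 to 742-1297 CPM (3 of 4 upregulated) and endothelial markers from 341-460 to 181-263 CPM (3 of 5 downregulated). Basal and contractile markers (374-781 and 511-662 CPM), macrophage markers (277-894 and 581-859 CPM) and Schwann cell markers (136-228 and 56.8-121 CPM) had 1, 1 and 0 upregulated and 3, 0 and 2 downregulated genes. Of the squamous markers, *Lor* and *Ivl* were at 0 in at least 1 library, as was *Pax5* of the B cell markers. The part of these shifts in the ligand values was not tested. Skeletal muscle markers were at 3679 and 1455 CPM in M11035 and M11640 but at 4.24 CPM in M9232, and between 7.08 and 13.8 CPM in the tumors. Leaving out any 1 of the 3 glands changed no call among the 9 ligands. Each of these fits kept M11035 or M11640, so the part of muscle in the ligand values was not tested.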

How the data were processed

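The 6 RNA-Seq libraries (mammary tumor and adjacent normal gland of 3 BK5.ATF3 mice) were grouped by their labels. The authors mapped 2 × 76 bp read pairs to mm9 with TopHat2 2.0.3, counted fragments per RefSeq gene with HTSeq 0.5.3p9, removed genes under 10 fragments and deposited an expression signal, CPM on the effective library size of edgeR 3.6.1. The columns do not sum to 1 total, so the unit was recorded as signal. Division by the CPM of 1 fragment gave whole fragments within 0.001 for 100% of values.

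The test was limma 3.58.1 with its trend option (R 4.3.3), run on log2(CPM + 0.5) without a block, since the study's methods name none. edgeR 4.0.16 (quasi-likelihood) and DESeq2 1.42.0 on recovered fragments were alternatives, with other pseudocounts, a minimum of 1 CPM, other size factors, a replicate block and each library left out. The test was checked on simulated data. Levels per kb used the longest GENCODE vM1 transcript (mm9), since RefSeq transcript lengths were not used here. All 10 ligands were named, as were all genes of the other ligand and secretion lists and the highest and lowest of each other list. The members, lists and tests were chosen with earlier results of these data known.

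The floor was 3 fragments in each library, and intervals cover counting error only. No libraries were copies: fragments of any pair within a tissue differed with a chi-square of 13.7 or more per degree of freedom. The 2 tissues of a mouse come from 1 animal, which pairs them. Over 14712 genes their deviations from the tissue means correlated with r = 0.107, 0.151 and 0.0168 for T11035, T11640 and T9232 and their glands.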

Additional observations from a re-analysis of the deposited data

How the results depend on the processing

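Under the 13 alternatives, 6 ligands were upregulated and 1 downregulated each time, and no ligand changed direction or call. DEGs over all genes numbered between 3774 (without T11640) and 4462 (edgeR), beside 4309. With the replicate block, which pairs the 2 tissues of a mouse, 4298 genes were DEGs, and the block changed no call of a ligand. *Wnt11*, at a log2 fold change of 0.02, was -0.016 with a pseudocount of 1, -0.17 by edgeR and -0.19 by DESeq2, and between -0.47 and 0.54 with 1 library left out, with no call. In the non-canonical list between 4 (without T11640) and 7 genes were DEGs with 1 library left out. The cause was not tested. *Wnt16* gave no value with a minimum of 1 CPM. Chosen after seeing the data were the exon-union and coding lengths and the sum without *Wnt5a*. *Wnt5a* was first in both tissues and *Wnt5b* last in the tumors with every length, or none. Other places moved, such as *Wnt10b* between 3 and 5 in the tumors. With 3 libraries a tissue and gland levels near 3 fragments, depth limits the ratios of *Wnt3*, *Wnt6*, *Wnt7b*, *Wnt10a* and *Wnt10b*.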
